A study of Mus musculus with 12 samples.

Results

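The genes described here were 8 members of the regulatory factor X (RFX) system and Rbpj, 9 genes out of 24985 in the count table, taken by symbol. The study names the RFX family, with Rfx3, Rfx5 and Rfx7 by symbol, and RBPJ as transcription factors in its other experiments, and the remaining 5 genes were included here as members or partners of that family. They comprised the RFX DNA-binding factors Rfx1, Rfx2, Rfx3, Rfx4, Rfx5 and Rfx7, the RFX5 partner subunits Rfxap and Rfxank, and the Notch effector Rbpj. All 9 were detected in every library and passed the filter on low counts. The data were poly(A) RNA-seq of dorsal hippocampus from C57Bl6/J mice, wild type for ACSS2 by the study's account, in 4 groups of 3 libraries. Mice were 6 months old when they were injected on 1 side of the brain with PBS or with 1 ug of AD tau. AD tau is sarkosyl-insoluble tau purified from human Alzheimer's disease cortex. The mice were kept on control chow or on chow with 5% sodium acetate. By the study's account the diets were kept for 6 months after injection, and mice were characterized 6 months after it. The groups were PBS-injected mice on control diet, PBS-injected mice on acetate, tau-injected mice on control diet and tau-injected mice on acetate. Tissue came from the injected side 24 h after a remote memory recall test. The mice carried no tau transgene, so tau pathology in this model is seeded from the injected human material. The groups were labelled as biological replicates, and the mice in each library were described no further.

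RFX factors share a winged-helix DNA-binding domain that reads the X-box, a pair of inverted half-sites found in the promoters of ciliary and immune genes. Rfx2 and Rfx3 switch on genes of motile and primary cilia, in the brain best known in the ependymal cells that line the ventricles. Rfx5 with Rfxap and Rfxank forms a complex that recruits CIITA to the promoters of MHC class II genes. Rbpj is the DNA-binding protein through which Notch receptors act: it recruits corepressors when Notch is silent and coactivators of the Mastermind family when the cleaved Notch intracellular domain is bound.

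Sequences around the start sites are shown because some genes carry, near their own starts, letters that RFX factors (Rfx1, Rfx2 and Rfx3) or RBPJ (Rbpj alone) read. RefSeq windows of 300 bases on GRCm38.p6, with 250 bases before the start site and 50 after it, were matched for 8 of the 9 genes, in 10 windows, and Rfxap had none in the table. The X-box half-site GTTGCC was searched on both strands (reverse complement GGCAAC) and lay in 3 of the 10 windows, those of Rfx1, Rfx2 and Rfx3, against 12.5% of 32851 promoters. The stretches are read 5′ to 3′ along each gene's own strand, and capitals mark the half-site. Distances are counted in bases from the start site, negative before it. The Rfx1 stretch is chr8:84066736-84066863, plus strand, with the half-site at 2. The Rfx2 stretch is chr17:56831094-56831153, minus strand, with the half-site at -116. The Rfx3 stretch is chr19:28011118-28011147, minus strand, with the half-site at 32, inside the first exon.
Rfx1: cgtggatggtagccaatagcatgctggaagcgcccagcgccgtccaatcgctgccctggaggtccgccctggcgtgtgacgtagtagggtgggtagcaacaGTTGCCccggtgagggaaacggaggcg
Rfx2: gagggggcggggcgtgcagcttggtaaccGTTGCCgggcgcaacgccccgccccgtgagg
Rfx3: gttatagcaaccGTTGCCttgtgaatcaag

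In all 3 of these stretches the half-site followed the letters AAC after 1 further base. These are the last 3 letters of the reverse complement GGCAAC, and its other letters were not asked for. A full X-box, with its 2 half-sites, was not searched for. The arrangement of AAC, 1 base and half-site was picked out after the windows had been read. On either strand it occurred in 44 of the 32851 promoters (0.134%), among them these 3.

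The RBPJ core TGGGAA (reverse complement TTCCCA) lay in 2 of the 10 windows, both of Rbpj itself, against 25.6% of promoters. These windows overlapped and shared 1 of the matches. Both RefSeq starts lay inside the Rbpj span of the GENCODE annotation. The first stretch is chr5:53590176-53590243 and the second is chr5:53590270-53590299, both on the plus strand, with matches at -149 and -65 from the upstream start and the core in capitals.
Rbpj upstream match: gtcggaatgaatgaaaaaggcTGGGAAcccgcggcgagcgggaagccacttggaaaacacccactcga
Rbpj downstream match: acgctcgcattTTCCCAggacccctcctcc

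The CCAAT box, the site of the NF-Y partner of the RFX5 complex, was searched as CCAAT and ATTGG. It lay in 5 of the 10 windows, those of Rfx1, Rfx2, Rfx5, Rfxank and 1 of Rfx4, against 37.4% of promoters. None of the searched motifs contains another. A match describes the letters in the window and was not tested for binding.

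The series describes male mice, but Xist, which coats the inactive X, was at 919.8 to 1340.4 CPM (counts scaled to a common library total) in all 12 libraries, and 4 Y-linked genes (Ddx3y, Eif2s3y, Kdm5d and Uty) had 0 counts in total. By these genes all 12 libraries were of female tissue. The study's account has females in the behavioural work and males in bulk RNA-seq. All groups were alike in these genes, so no comparison could be made without such libraries. Libraries held 12983233 to 20218340 counts and expressed markers of hippocampal neurons and glia. The blood genes Hbb-bs and Hba-a1 were listed at 0 throughout, so blood content could not be judged from them. In bulk tissue, fewer cells of a type and less RNA per cell cannot be told apart.

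Rfxap and Rfx3 were the most abundant of the 9 genes per length of exon, and Rfx2 the least. Levels between genes are given as CPM per kilobase of GENCODE M21 exon, as mean ± SD over 12 libraries. Rfxap stood at 13.4 ± 0.743 (range 11.4 to 14.1), higher than 74.5% of the 14608 tested genes with an exon length. Rfx3 stood at 11.3 ± 1.14 (range 8.99 to 13.1), higher than 70.5% of them. The ranges of these genes overlapped, and both lay above every value of the other members.

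A middle group followed, in which each gene overlapped its neighbours in the order. Rfx5 was at 4.21 ± 0.341 (3.68 to 4.88). Rfx1, the founding member of the family with both activating and repressing domains, was at 3.90 ± 0.399 (3.43 to 4.54). Rfxank was at 3.19 ± 0.213 (2.91 to 3.51). These lay between the 37.3 and 44.0 percentiles of tested genes. Rfx7, a widely expressed member, was at 2.90 ± 0.169 (2.53 to 3.20), and Rfx4, known from neural progenitors and astrocytes, at 2.89 ± 0.301 (2.44 to 3.42).

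Rbpj and Rfx2 stood apart at the lower end. Rbpj was at 1.34 ± 0.115 (1.13 to 1.55), above 21.8% of tested genes. Rfx2 was at 0.496 ± 0.0847 (0.327 to 0.626), above 10.3% of them. Rfx2 rested on 37 to 89 counts per library and had the widest spread, a within-group coefficient of variation of 18.3%, against 4.99% for Rfxank and 10.4% for Rfx3. Of the other genes of the same families, Rfx6 had 0 counts in all 12 libraries, and Rfx8 (4 to 16 counts) and Rbpjl (2 to 17 counts) stayed under the filter.

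**Figure D1:**
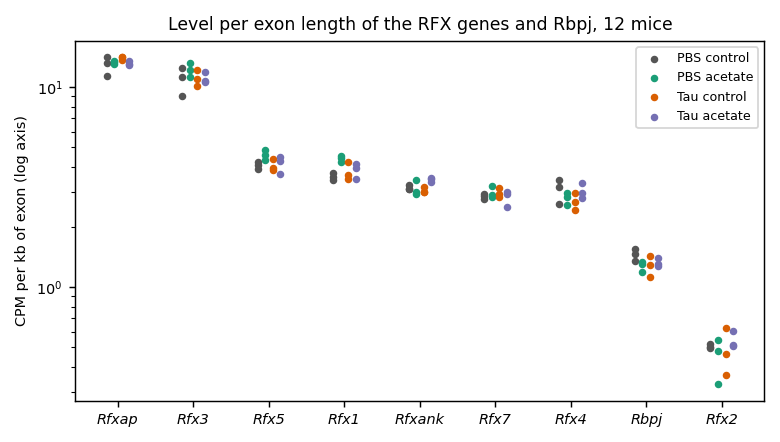
CPM per kilobase of exon (log axis) of the 9 genes in order of mean level, with 1 point per library coloured by group. Rfxap and Rfx3 sit highest, at 8.99 or above, and Rfx2 lowest, at 0.626 or below.

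The first question was whether tau seeding changed these genes in mice on control diet. No member was called: 0 of 9 passed an adjusted p of 0.1 (edgeR's quasi-likelihood test, Benjamini-Hochberg over 14742 genes), where 2 genes (0.0136%) passed in all. At an unadjusted p under 0.05 there were 1423 genes and 0 of the 9. No member had groups that did not overlap, against 13.5% of tested genes. The median size of the log2 fold change was 0.07 over the members and 0.09 over all tested genes.

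Rfx3 is a regulator of ciliary genes. In PBS-injected mice on control diet Rfx3 was at 99.1, 137 and 124 CPM, and in tau-injected mice on control diet at 122, 111 and 134 CPM. The groups overlapped, and the lowest and the highest of these 6 values were both from PBS-injected mice. The log2 fold change was 0.03 (95% interval -0.21 to 0.27, adjusted p = 0.966 by edgeR), which leaves room for folds from 0.866 to 1.20. Without the PBS-injected control-diet library at 99.1 CPM, replicate 1, it was -0.10.

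Rbpj was at 17.2, 18.6 and 19.8 CPM in PBS-injected mice and at 16.5, 14.4 and 18.2 CPM in tau-injected mice on this diet. The values overlapped, with the lowest in a tau-injected mouse and the highest in a PBS-injected one. The log2 fold change was -0.18 (SE 0.10, 95% interval -0.39 to 0.03, adjusted p = 0.618 by edgeR). Rfx4 had a like difference of -0.18 (SE 0.12, adjusted p = 0.682 by edgeR), from 15.02, 16.1 and 12.3 CPM to 12.6, 14.0 and 11.5 CPM, again with overlap. Both values leaned on single libraries: Rbpj was at -0.092 without tau-injected replicate 2, and Rfx4 ranged from -0.10 without PBS-injected replicate 2 to -0.29 without PBS-injected replicate 3, and was at -0.12 without tau-injected replicate 3.

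Rfx5 was the closest to no difference, at -0.01 on the log2 scale (95% interval -0.20 to 0.18, adjusted p = 0.990 by edgeR). The other 5 genes ranged from -0.07 for Rfx2 to 0.11 for Rfxap. The widest interval was that of Rfx2, -0.54 to 0.41, and its counts were the lowest.

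**Figure D2:**
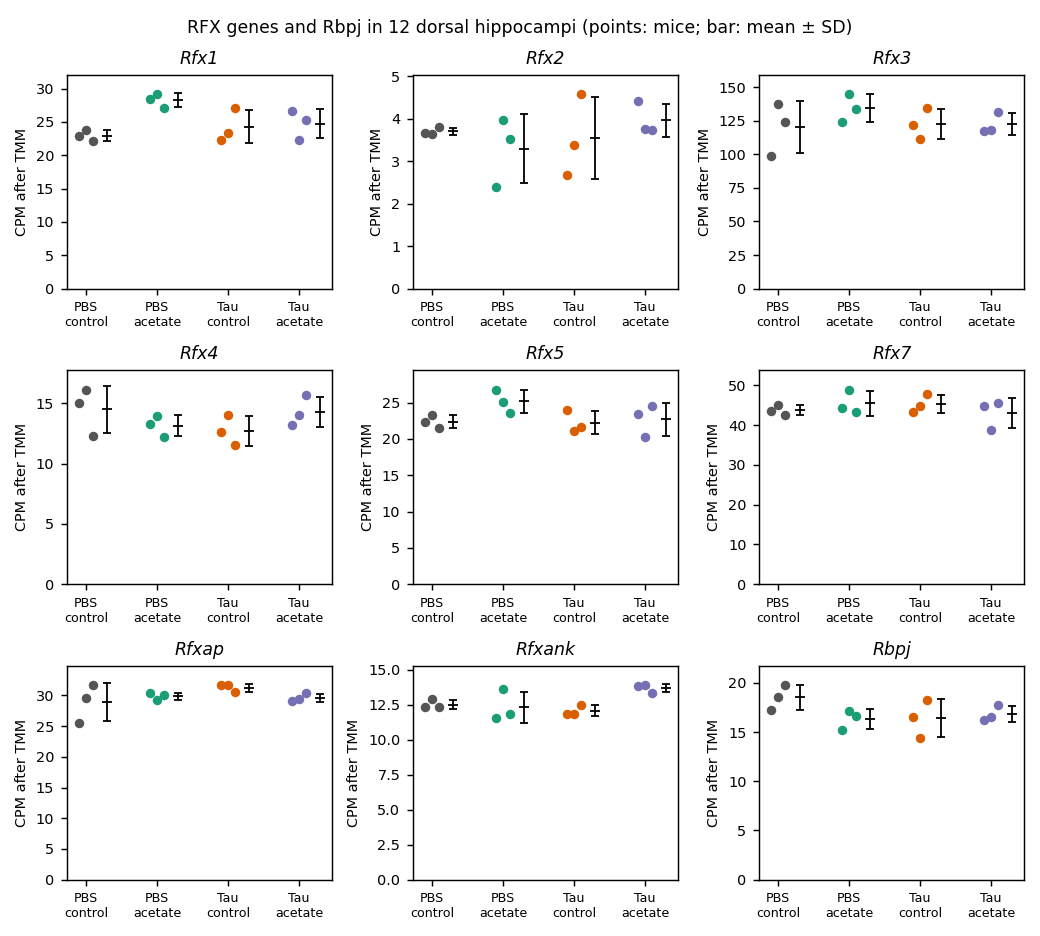
CPM after TMM scaling (y axis, from 0, a scale per gene) of the 9 genes in the 4 groups, with 1 point per library and the bar at mean ± SD (n = 3). For Rfx1, the 3 PBS-injected mice on acetate sit at 27.2 to 29.2 CPM, above the 22.1 to 23.9 CPM of PBS-injected mice on control diet.

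The second question was what acetate did in the absence of tau. Here 1 of the 9 genes, Rfx1, was higher with acetate past the threshold, and 8 were not called. Over all genes 1303 (8.84%) passed, 588 higher and 715 lower, so 1 in 9 is near that background. Groups did not overlap for Rfx1, Rfx5 and Rbpj, 3 of 9 genes, against 26.3% of tested genes. The median size of the log2 fold change was 0.16 over the members and 0.12 over all tested genes.

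Rfx1 was at 22.9, 23.9 and 22.1 CPM on control diet and at 28.5, 29.2 and 27.2 CPM on acetate. Every acetate-fed PBS-injected mouse was above every control-diet one. The means were 23.0 ± 0.893 and 28.3 ± 1.03 CPM (SD, n = 3), a rise of 0.30 on the log2 scale (SE 0.09, 95% interval 0.12 to 0.49, adjusted p = 0.0605 by edgeR), or 1.23-fold. The call held with DESeq2's test (adjusted p = 0.0600), and it was not made at an adjusted p of 0.05. It was lost without any 1 of 4 libraries: control-diet replicate 1 (adjusted p = 0.120 by edgeR) or 3 (0.188), or acetate replicate 1 (0.146) or 2 (0.226). Over all genes 15 passed without acetate replicate 2, 315 without acetate replicate 1, 248 without control-diet replicate 3 and 727 without control-diet replicate 1. The log2 fold change of Rfx1 stayed at 0.27 to 0.33 over the 12 fits that each left out 1 library.

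**Figure D3:**
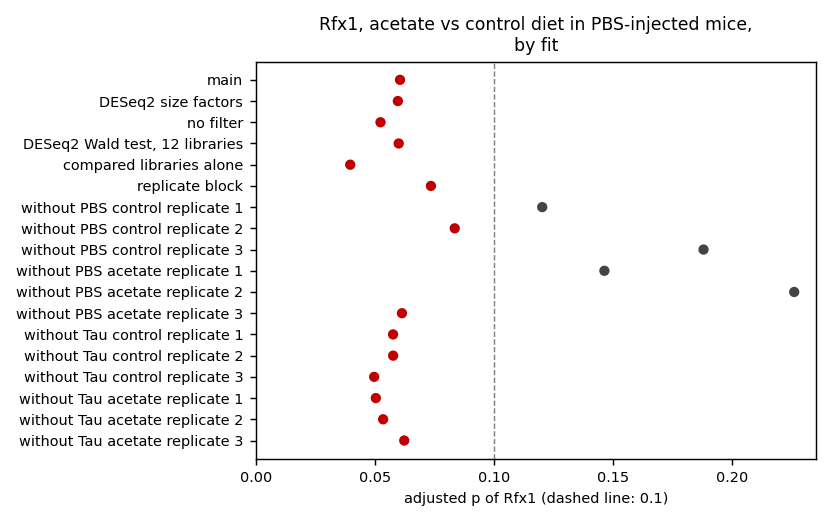
Adjusted p of Rfx1 with acetate in the PBS-injected groups (x axis) under each fit (y axis), with the dashed line at 0.1 and passing fits in red. Of the 12 fits that leave out 1 library, 8 pass, and the other 4, each without 1 PBS-injected mouse, reach adjusted p of up to 0.226.

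Rfx5 was at 22.4, 23.3 and 21.5 CPM on control diet and at 26.8, 25.1 and 23.6 CPM on acetate in PBS-injected mice. The groups did not overlap, but the difference of 0.17 on the log2 scale (SE 0.09, 95% interval -0.02 to 0.36) did not pass, with an adjusted p of 0.287 by edgeR. The partner subunits differed less. Rfxap was at 25.6, 29.7 and 31.7 CPM against 30.4, 29.2 and 30.1 CPM (0.05, adjusted p = 0.778 by edgeR). Rfxank was at 12.3, 12.9 and 12.3 CPM against 11.6, 13.6 and 11.8 CPM (-0.02, adjusted p = 0.951 by edgeR).

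Rbpj lay lower in each acetate-fed PBS-injected mouse, at 15.2, 17.1 and 16.6 CPM, than in the control-diet mice given above, with a narrow gap between 17.1 and 17.2 CPM. The log2 fold change was -0.18 (SE 0.10, 95% interval -0.39 to 0.03, adjusted p = 0.312 by edgeR). This comparison and that of tau on control diet share the same 3 control-diet PBS-injected mice, so their values for Rbpj, -0.18 and -0.18, are not separate measurements of the baseline.

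Rfx3 was at 124, 145 and 134 CPM in acetate-fed PBS-injected mice, overlapping the control-diet mice, with a log2 fold change of 0.17 (SE 0.11, 95% interval -0.07 to 0.40, adjusted p = 0.421 by edgeR). Rfx4 was at 13.3, 13.9 and 12.2 CPM, with a log2 fold change of -0.14 (adjusted p = 0.538 by edgeR). Rfx7 was at 43.7, 44.9 and 42.5 CPM on control diet and at 44.2, 48.9 and 43.3 CPM on acetate, a difference of 0.06 (adjusted p = 0.700 by edgeR). The groups overlapped for all 3 genes. Rfx2, at 3.67, 3.63 and 3.79 CPM against 2.39, 3.97 and 3.51 CPM, had the least certain estimate, -0.16 with a 95% interval of -0.62 to 0.31.

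Marker genes of other cell types moved in the same PBS-injected mice. All 5 ependymal markers were lower with acetate and passed (median log2 fold change -1.58). Their summed level fell from 18.8 to 24.99 CPM on control diet to 9.24 to 9.84 CPM. All 5 CA1 markers lay above 0 and 3 passed (median 0.68, from 482 to 639 CPM to 765 to 1028 CPM). All 5 CA3 markers lay below 0 and 3 passed (median -0.85, from 238 to 286 CPM to 115 to 211 CPM). All 8 oligodendrocyte markers lay below 0 and 2 passed (median -0.51, from 7064 to 9108 CPM to 4430 to 6098 CPM). Over all tested genes 8.84% passed in this comparison. The part of these markers in the value of Rfx1 was not tested. For tau on control diet, set against the same control-diet PBS-injected mice, none of these 4 sets of markers had a gene that passed. There all 5 ependymal (median log2 fold change -1.04) and all 8 oligodendrocyte markers (-0.62) lay below 0. All 5 CA1 markers lay above 0 (median 0.53), and 4 of 5 CA3 markers below it (-0.35). Their part in the values of the 9 genes was not tested there either.

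With acetate in PBS-injected mice, of 5 choroid plexus markers 4 lay below 0 and 1 passed, as lower (median -1.17). Of 3 excitatory neuron markers 2 lay below 0 and 2 passed, as lower (median -0.22). Of 8 astrocyte markers 5 lay above 0 and 3 below, with 2 passing as higher and 1 as lower (median 0.06). The 2 oligodendrocyte precursor markers lay above 0 and 1 passed (median 0.24). None of the markers of microglia (6 genes), endothelium (5), meninges (4), dentate granule cells (3) or inhibitory neurons (3) passed.

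**Figure D4:**
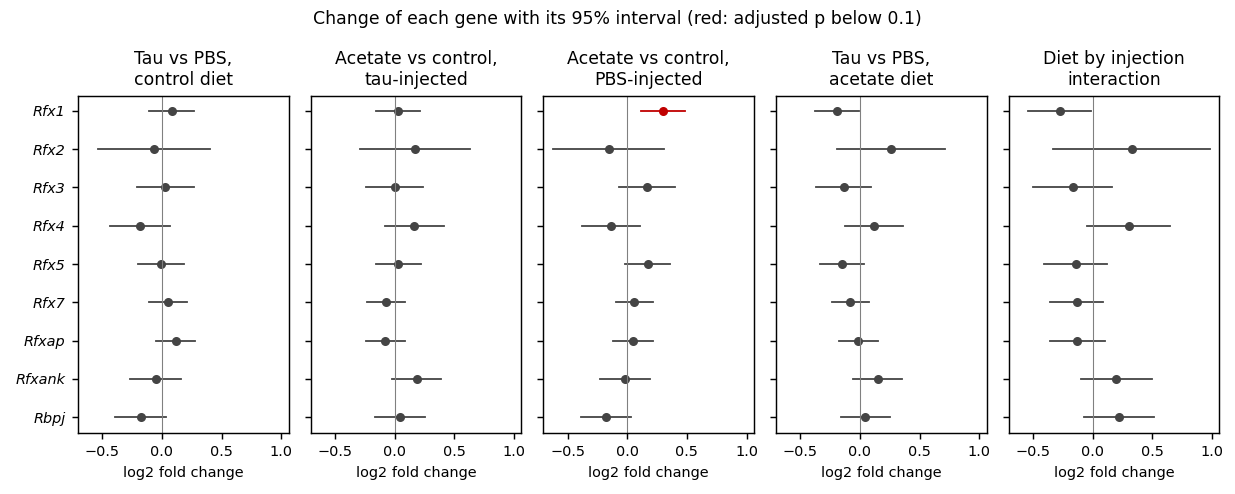
Log2 fold change (x axis) with its 95% interval for each of the 9 genes (rows) in the 4 comparisons of pairs of groups and in the interaction, with passing values in red. Rfx1 with acetate in PBS-injected mice, at 0.30, is the value that passes, and the intervals of Rfx2 are the widest.

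The third question was whether acetate changed these genes in tau-injected mice. It called 0 of 9, where 9 genes (0.0611%) passed in all, 1603 genes had an unadjusted p under 0.05, and 0 of the members did. Rfx3 was at 122, 111 and 134 CPM on control diet and at 118, 118 and 132 CPM on acetate. These means were 122.5 ± 11.4 and 122.5 ± 8.09 CPM (SD, n = 3), and the 95% interval of the log2 fold change ran from -0.24 to 0.24, or folds of 0.849 to 1.18. Rfx1 was at 22.4, 23.4 and 27.2 CPM against 26.6, 22.3 and 25.2 CPM, with overlap and a log2 fold change of 0.03 (adjusted p = 0.947 by edgeR).

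Groups did not overlap for Rfxank and Rfxap, 2 of 9 genes, against 14.4% of tested genes. Rfxank was at 11.8, 11.9 and 12.5 CPM on control diet and at 13.8, 13.9 and 13.4 CPM on acetate, all acetate-fed mice being higher. Its log2 fold change of 0.18 (SE 0.10, 95% interval -0.02 to 0.39) did not pass, with an adjusted p of 0.523 by edgeR. A share of 33.8% of Rfxank exon bases lies opposite Nr2c2ap exons on the other strand. Counting was set to the reverse strand, which would keep these genes apart if the libraries were stranded. The labels name a directional kit but its catalogue number differs from that in the methods, so how far reads of Rfxank and of Rfx5, which also has an opposite-strand neighbour, are free of their neighbours is uncertain. Rfxap was at 31.7, 31.6 and 30.5 CPM on control diet and at 29.0, 29.4 and 30.4 CPM on acetate, a difference of -0.08 in the other direction (adjusted p = 0.764 by edgeR).

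Rbpj was at 16.3, 16.6 and 17.8 CPM in tau-injected mice on acetate, overlapping the control-diet mice (0.04, adjusted p = 0.924 by edgeR). Rfx5 was at 24.0, 21.2 and 21.6 CPM against 23.4, 20.2 and 24.5 CPM (0.03, adjusted p = 0.943 by edgeR). Neither gene showed a side on which the acetate-fed mice lay. Rfx4, at 13.2, 14.0 and 15.7 CPM on acetate, had a log2 fold change of 0.16 (adjusted p = 0.656 by edgeR), and Rfx7, at 43.3, 44.8 and 47.8 CPM against 44.8, 38.7 and 45.6 CPM, a log2 fold change of -0.07 (adjusted p = 0.779 by edgeR). Rfx2, at 2.67, 3.38 and 4.58 CPM against 4.41, 3.75 and 3.73 CPM, had a log2 fold change of 0.17 (adjusted p = 0.837 by edgeR).

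The fourth comparison set tau against PBS in mice on acetate. It called 0 of 9, where 20 genes (0.136%) passed, and at an unadjusted p under 0.05 there were 1523 genes with 1 member, Rfx1, among them. Groups did not overlap for Rfx1 alone, against 16.2% of tested genes. Tau-injected mice lay lower, their highest value of 26.6 CPM being below the lowest of 27.2 CPM in the PBS-injected group. Rfx1 differed by -0.19 on the log2 scale (SE 0.09, 95% interval -0.37 to -0.01, adjusted p = 0.453 by edgeR). It rests on the same acetate-fed PBS-injected mice as the diet comparison above. The other 8 genes ranged from -0.15 for Rfx5 to 0.26 for Rfx2, and Rfx3 stood at -0.14 (95% interval -0.37 to 0.10).

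The last test asked whether the acetate difference itself depended on tau, as an interaction term. It passed for 0 of 9 members and for 230 genes (1.56%). Rfx1 had the largest departure relative to its error, with an acetate difference 0.27 lower on the log2 scale in tau-injected mice (-0.27, SE 0.13, 95% interval -0.54 to -0.01, adjusted p = 0.363 by edgeR). The call for Rfx1 in PBS-injected mice and its absence in tau-injected mice were thus not shown to differ. Rfx3 had an interaction of -0.17 (95% interval -0.50 to 0.17) and Rbpj an interaction of 0.22 (SE 0.14, adjusted p = 0.543 by edgeR). At an unadjusted p under 0.05 there were 1916 genes and 1 member, Rfx1.

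Genes that RFX factors and RBPJ work with were examined as lists, 77 genes past the filter in all. With acetate in PBS-injected mice 9 of the 77 passed (11.7%, against 8.84% of all genes), 4 higher and 5 lower. In the other comparisons of pairs of groups 0 passed, and in the interaction 3 did (3.90%, against 1.56%). The lists held no tested gene of the remaining RFX family, Rfx6 and Rfx8.

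Among the 15 tested ciliary genes that RFX factors are known to regulate, 3 passed as lower and 1 as higher with acetate in PBS-injected mice. The share passing over all tested genes was 8.84%. Of the 15, 8 lay above 0 and 7 below, with a list median of 0.05. Foxj1, the master regulator of motile cilia, was at 16.3, 16.5 and 15.3 CPM on control diet and at 7.88, 6.55 and 7.35 CPM on acetate. Each acetate-fed mouse was below each control-diet mouse, and Foxj1 fell by 1.15 on the log2 scale (adjusted p = 0.0355 by edgeR). Tekt1, a filament protein of motile axonemes, fell by 1.29 (adjusted p = 0.0355 by edgeR), from 3.67, 2.63 and 3.32 CPM to 1.49, 1.19 and 1.28 CPM. Dnah11, an outer-arm dynein heavy chain, fell by 1.62 (adjusted p = 0.0899 by edgeR), from 4.48, 4.56 and 3.45 CPM to 1.49, 1.34 and 1.21 CPM. These 3 genes are used in motile cilia, and they moved with the ependymal markers given above, whose part in them was not tested. Other genes of motile cilia in the list did not pass: Dnah5 was at -0.49, Spag6l at -0.12 and Dnah9 at 0.05.

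Ift122, a component of the intraflagellar transport machinery of all cilia, moved the other way, up by 0.28 (adjusted p = 0.0382 by edgeR), from 34.5, 34.7 and 37.4 CPM to 44.2, 42.9 and 42.0 CPM. Rfx3, listed in the same mice at 124 to 145 CPM, did not pass. Without acetate replicate 2 none of these 4 ciliary calls was kept, Foxj1 and Tekt1 were also lost without control-diet replicate 3, and Ift122 without acetate replicate 1. Dnah11 was called in 2 of the 12 fits that left out a library, and its call was also lost with no filter on low counts.

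In tau-injected mice Foxj1 was at 5.77, 9.62 and 9.46 CPM on control diet and at 20.8, 9.92 and 13.9 CPM on acetate. All 3 acetate-fed mice were above the control-diet mice, the opposite order to the PBS-injected mice, although this difference alone did not pass. The interaction of Foxj1 was 2.00 (adjusted p = 0.0466 by edgeR). Tekt1 had an interaction of 2.04 (adjusted p = 0.0547 by edgeR), with 1.59, 1.19 and 2.52 CPM on control diet and 4.21, 1.94 and 2.57 CPM on acetate, which overlapped. Of the ependymal markers 4 of 5 passed the interaction (median 2.51), against 1.56% of all tested genes. Their summed levels in tau-injected mice overlapped, at 7.86 to 16.0 CPM on control diet and 13.4 to 25.7 CPM on acetate.

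Of the genes that bind or act with the RFX5 complex, 4 were tested and Ciita was under the filter. Nfyb, a subunit of NF-Y, was higher with acetate in PBS-injected mice by 0.26 (adjusted p = 0.0458 by edgeR), at 46.0, 49.5 and 49.4 CPM against 57.6, 58.6 and 57.4 CPM. The list's median was 0.08. Among 7 tested MHC class II genes, the main targets of the complex, 1 passed, against 8.84% of all tested genes. H2-Ab1, a class II beta chain, was at 2.79, 1.62 and 0.609 CPM on control diet and at 0.388, 0.413 and 0.511 CPM on acetate. It fell by 1.95 on the log2 scale (adjusted p = 0.0506 by edgeR) on 6 to 48 counts per library, and the call was lost without control-diet replicate 1, acetate replicate 1 or acetate replicate 2. The median of the list was -1.25, with 6 genes below 0 and 1 above. H2-Aa (-1.81), Cd74 (-1.47) and H2-Eb1 (-1.25) did not pass. H2-DMa (0.17), H2-DMb1 (-0.0041) and H2-Ob (-0.19) lay near 0. H2-Eb2, H2-DMb2 and H2-Oa were under the filter.

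The Notch pathway around Rbpj held 51 tested genes, of which 3 passed with acetate in PBS-injected mice and the median log2 fold change was 0.03. Over all tested genes 8.84% passed in this comparison. Among 6 ligands Jag1 was higher by 0.40 (adjusted p = 0.0893 by edgeR), at 7.16, 6.95 and 6.64 CPM against 8.72, 8.92 and 9.84 CPM. Among 4 receptors Notch3, the receptor of vascular mural cells, was higher by 0.39 (adjusted p = 0.0880 by edgeR), at 8.32, 10.3 and 8.87 CPM against 11.9, 11.4 and 12.5 CPM. The acetate-fed mice were above the control-diet mice for both genes. DESeq2 called neither (adjusted p = 0.127 for Jag1 and 0.108 for Notch3), and Jag1 was also lost with no filter.

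Of 18 genes that process or turn over Notch, Itch, a ubiquitin ligase that targets Notch, was lower by 0.30 on the log2 scale (adjusted p = 0.0203 by edgeR). It was at 98.6, 100.1 and 92.7 CPM on control diet and at 78.9, 83.2 and 73.7 CPM on acetate, with no overlap. In tau-injected mice Itch was at 89.3, 77.3 and 89.0 CPM against 87.9, 90.1 and 86.8 CPM, and its interaction was 0.36 (adjusted p = 0.0803 by edgeR). None of the 6 RBPJ coactivators (median -0.01), the 10 corepressors (median -0.01) or the 7 Notch targets (median -0.0016) passed with acetate in PBS-injected mice. The targets were Hes1, Hes5, Hey1, Hey2, Heyl, Nrarp and Dtx1. Without acetate replicate 2 the calls for Nfyb, Jag1, Notch3 and Itch were lost. Without acetate replicate 1 those for Nfyb, Jag1 and Notch3 were lost as well, as they were without control-diet replicate 1 or 3. Jag1 and Notch3 were also lost without acetate replicate 3, and Jag1 without control-diet replicate 2 or tau-injected acetate replicate 2.

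**Figure D5:**
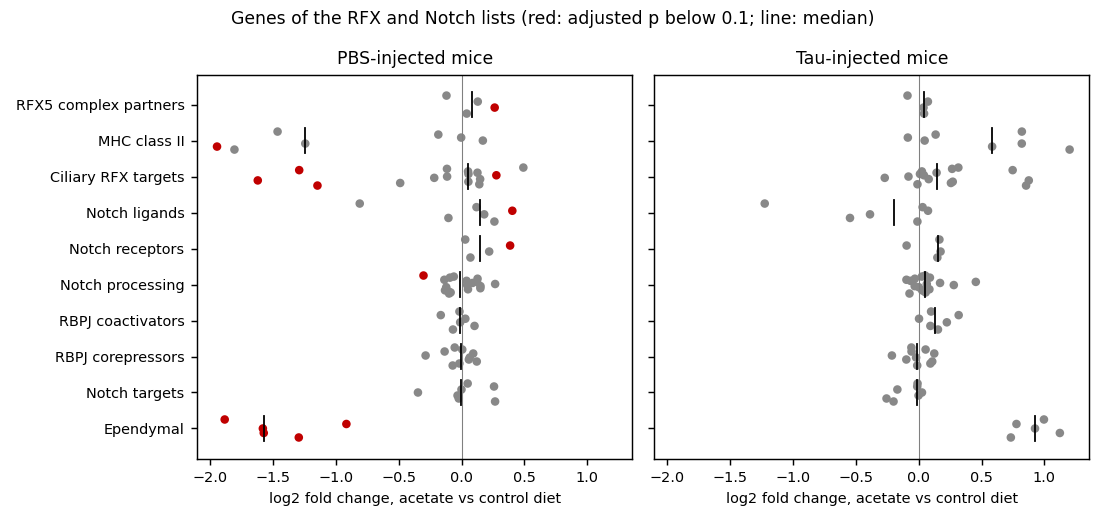
Log2 fold change with acetate (x axis) of the genes of each list (rows) and of the ependymal markers, in PBS-injected mice (left) and tau-injected mice (right), with 1 point per gene, passing genes in red and the list median as a line. The ependymal median is -1.58 on the left and 0.93 on the right, and no gene passes on the right.

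Over the 12 libraries the genes whose log2 CPM ran closest to Rfx3, by Pearson's r across all groups, were Ankrd45 (0.940), Mcf2l (0.898) and Chst15 (0.888). For Rfx5 they were Helq (0.932), Cirbp (0.918) and Meis3 (0.909), and for Rbpj they were Extl2 (0.916), Cadm2 (0.906) and Fndc5 (0.905). These points share libraries, group means and tissue content, and these are the 3 highest values for each member among 14742 genes. Among the members themselves the closest pairs were Rfx2 with Rfxank (0.66), Rfx1 with Rfx7 (0.66) and Rfx1 with Rfx5 (0.64), and the most opposed was Rfx2 with Rfx5 (-0.49).

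The members lie on 7 chromosomes of GRCm38. Rfx1 is at chr8:84066834-84096992 and Rfxank at chr8:70130794-70139154, Rfx5 at chr3:94954075-94961561 and Rfxap at chr3:54803115-54807791, and Rbpj at chr5:53466152-53657362. Rfx7 is at chr9:72532240-72622937, Rfx4 at chr10:84756062-84906538, Rfx2 at chr17:56775897-56831013 and Rfx3 at chr19:27761721-28011166. No exon of another gene overlaps them on the same strand. On the opposite strand B230398E01Rik covers 26.8% of Rfx5 exon bases, Gm27232 and Gm27241 together 6.63% of those of Rfx7, and C330011M18Rik 0.653% of those of Rfx1. Processed copies of Rbpj are annotated in the genome but had 0 rows in the count table, so how reads shared with them were assigned is uncertain.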

How the data were processed

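The deposited counts were whole numbers of reads per gene, 1 column for each of 12 libraries. Per the labels and methods, the authors aligned poly(A) reads with STAR 2.5.2a to GRCm38, handled files with SAMtools 1.1 and counted reverse-strand reads over exons with HTSeq 0.9.1. The gene annotation is not given in the sources used here. Of 24985 genes, 14742 passed edgeR's filterByExpr (minimum count 10, minimum total 15). Differences were tested with edgeR 4.0.16 (R 4.3.3): TMM scaling, 1 mean per group over all 12 libraries, robust quasi-likelihood F tests, and Benjamini-Hochberg adjustment over all tested genes, called below 0.1. SEs and 95% intervals came from the same fit, and p-values set differences of group means against the spread between libraries within groups. The common biological coefficient of variation was 7.25%, on 8 residual degrees of freedom. CPM used TMM library sizes, and levels per length used the union of GENCODE M21 exons, with 24534 symbols matched.

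All 9 members were named, as were list genes past the threshold, at most 4 per list and comparison, and for Rfx3, Rfx5 and Rbpj the 3 genes closest by Pearson's r. Markers of other cell types were given as counts and summed levels. Members, lists and rules were chosen with earlier results of these data known. Promoters came from a RefSeq table on GRCm38.p6. Alternatives were DESeq2 1.42.0 (size factors alone, and its Wald test), no filter, an adjusted p of 0.05, the compared libraries alone, a replicate block, and leaving out each library. The fit was tested on simulated counts. Replicates of a group differed by more than counting noise in all pairs (chi-square per degree of freedom 3.46 to 7.51). No set test was run.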

Additional observations from a re-analysis of the deposited data

Results flagged for a closer look

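Among the RFX and Notch list genes, 3 had an acetate difference that itself differed between PBS-injected and tau-injected mice, by the interaction term of edgeR's quasi-likelihood fit. Foxj1 had an interaction of 2.00 on the log2 scale (adjusted p = 0.0466), lost without PBS-injected acetate replicate 2 (adjusted p up to 0.155 over the fits that left out 1 library). Tekt1 had 2.04 (adjusted p = 0.0547), lost without PBS-injected acetate replicate 2, tau-injected control-diet replicate 2 or tau-injected acetate replicate 1. Itch had 0.36 (adjusted p = 0.0803) and was called in 3 of the 12 fits that left out 1 library. None of the 9 members was among them.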

How the results depend on the processing

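With 3 mice per group, the 95% intervals of the members other than Rfx2 reached, between pairs of groups, from 0.741-fold (Rfx4, tau on control diet) to 1.40-fold (Rfx1, acetate in PBS-injected mice), and Rfx2 was limited by its 37 to 89 counts. In PBS-injected mice the number of members called with acetate was 1, 0 at an adjusted p of 0.05, and 0 to 1 over the fits that left out 1 library. In the other comparisons it was 0 under every setting run. The replicate block kept Rfx1 at 0.30 (adjusted p = 0.0735) and changed no member's call, while among the list genes those of Dnah11 and Notch3 in PBS-injected mice were lost. Same-numbered libraries of different groups correlated at -0.10 to 0.14 over genes, after group means were removed. These low values gave no clear pairing by number and cannot exclude one.

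Of the members' values under all alternatives 724 kept their direction and call, 28 turned direction, none of them past the threshold, and 4, all Rfx1 in PBS-injected mice, lost the call. In tau-injected mice the acetate value of Rfx3 was 0.0078 with no filter and 0.0050 from the compared libraries alone. Over the fits that left out 1 library, values that turned ran, for tau on control diet, from -0.0033 to 0.14 for Rfx1, -0.29 to 0.10 for Rfx2, -0.10 to 0.14 for Rfx3 and -0.065 to 0.029 for Rfx5. For acetate in tau-injected mice they ran from -0.024 to 0.11 for Rfx1, -0.065 to 0.070 for Rfx3, -0.021 to 0.11 for Rfx5 and -0.044 to 0.13 for Rbpj. For acetate in PBS-injected mice they ran from -0.32 to 0.027 for Rfx2, -0.034 to 0.12 for Rfxap and -0.093 to 0.033 for Rfxank, and for tau on acetate from -0.033 to 0.0013 for Rfxap and -0.0020 to 0.082 for Rbpj.

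Counts over all genes moved more. For tau on control diet 2 genes became 86 with DESeq2, 35 from the compared libraries alone and 9 with the replicate block. For acetate in tau-injected mice 9 became 56 with no filter, 176 with DESeq2, 2 from the compared libraries alone and 3 at 0.05. For acetate in PBS-injected mice 1303 became 541 at 0.05. For tau on acetate 20 became 37 with no filter, 121 with DESeq2 and 0 at 0.05. The interaction's 230 became 438 with DESeq2, 349 with the block and 43 at 0.05. Over the fits that left out 1 library the same counts ran from 0 to 16 (highest without tau-injected acetate replicate 3), 1 (without tau-injected control-diet replicate 2 or 3) to 66 (without tau-injected acetate replicate 3), 15 (without PBS-injected acetate replicate 2) to 1425 (without tau-injected control-diet replicate 2), 0 (on leaving out PBS-injected acetate replicate 1, 2 or 3) to 93 (without tau-injected acetate replicate 2) and 8 (without PBS-injected acetate replicate 2) to 442 (without tau-injected acetate replicate 3). The cause was not tested.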
